A study of Mus musculus with 22 samples.

Results

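The Dynlt1 gene cluster of mouse chromosome 17 was examined for binding sites of the transcription factors C/EBP beta and CREB1 in collecting duct cells. Its members were all deposited peaks between 6.2 and 6.8 Mb (mm10), around the genes Tmem181a, Dynlt1a, Dynlt1b, Dynlt1c, Dynlt1f, Sytl3 and Ezr. This stretch held 7 of the 3801 peaks in the 4 deposited lists. All 7 were C/EBP beta peaks, 3 of 209 after vehicle and 4 of 2401 after dDAVP. Neither CREB1 list had a peak there (0 of 785 after vehicle and 0 of 406 after dDAVP). The stretch was chosen with the scores of these lists known, so its peak scores, widths and overlaps are a description without a test.

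Chromatin immunoprecipitation and sequencing was done in the mouse line mpkCCD, derived from the cortical collecting duct, of which a single clone (clone 11) was used, at passages 6 to 12. Cells grown to confluence on permeable supports and kept without serum and hormones received 0.1 nM dDAVP, a vasopressin analog selective for the V2 receptor, or vehicle, for 30 min. The 22 samples comprised 4 CREB1 and 2 C/EBP beta immunoprecipitates per treatment and 10 inputs, of which 2 served both antibodies. The files used here hold 1 peak list per antibody and treatment. By the peak names the C/EBP beta scores are those of replicate 1 alone, and no value of the other replicate is given. The values below therefore carry no replicate error, and how deeply the libraries were sequenced is unknown. The lists hold no expression values, so the cell type was not checked against marker genes.

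Dynlt1, also called Tctex-1, is a light chain of cytoplasmic dynein, the motor that carries vesicles and other cargo along microtubules towards their minus ends. In the mouse it is encoded by several neighbouring copies on chromosome 17. C/EBP beta is a leucine zipper factor of stress and acute phase responses, and CREB1 is the leucine zipper factor that protein kinase A phosphorylates when cAMP rises, as it does when vasopressin acts on collecting duct cells.

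Dynlt1c and Dynlt1f were alike in their promoters (RefSeq, GRCm38.p6). These promoters are shown because repeated sequence limits how surely a peak can be assigned to one copy. No peak overlapped them, so they do not tell how alike the sequences under the peaks are. The promoters of Gm29721, Sytl3 and Ezr, genes that hold a peak, shared no stretch of 31 bases with another promoter. Of 300 bases per promoter of Dynlt1c and Dynlt1f, a stretch of 192 aligned without gaps, of which 189 were identical (98.4%). It ran from base 1 to 192 for Dynlt1c and from base 109 to 300 for Dynlt1f, up to an edge of each promoter. The other bases had no counterpart in the other promoter at this offset and were not compared. The 116 bases of this stretch that lie outside the annotated bounds of both genes, before their starts, are given 5′ to 3′ on the strand of the gene, at chr17:6601529-6601644 on the plus strand for Dynlt1c and at chr17:6655966-6656081 on the minus strand for Dynlt1f. Capitals mark the 3 bases that differ, A26C, C52T and C90G, with the Dynlt1c base first and positions counted from 1 at the 5′ end of the printed stretch.
Dynlt1c: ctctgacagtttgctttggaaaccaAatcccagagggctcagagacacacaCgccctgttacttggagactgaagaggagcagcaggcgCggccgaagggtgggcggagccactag
Dynlt1f: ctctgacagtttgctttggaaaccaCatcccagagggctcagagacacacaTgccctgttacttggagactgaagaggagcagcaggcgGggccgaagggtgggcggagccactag

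The annotation of the stretch was itself repetitive. It held 24 genes, of which 10 were protein-coding, 10 pseudogenes and 4 lncRNA genes. Tmem181a, which encodes a membrane protein with several transmembrane spans, had the pseudogene copies Tmem181b-ps and Tmem181c-ps beside Dynlt1b and Dynlt1c. The pseudogenes Ppp1r2-ps6 and Ppp1r2-ps1 were both 1471 bp long, and a further one of that name, Ppp1r2-ps5, spanned 2131 bp. How reads that fit several copies were placed is not given in the sources used here, and the sequence under the peaks was not analysed. The part of shared reads in the peaks below was not tested, and the assignment of a peak to one copy is uncertain.

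C/EBP beta peaks stood at 4 places, named here by the annotated gene that holds the peak centre. The first lay in the transcribed pseudogene Gm29719 at chr17:6406804-6407332 after dDAVP, with Dynlt1b as the nearest protein-coding gene. The second lay in the annotated protein-coding gene Gm29721 at chr17:6572103-6572595, on the side that faces Dynlt1c. The third lay in Sytl3, a synaptotagmin-like protein that binds Rab27 GTPases in vesicle secretion, at chr17:6678105-6678601, on the side that faces Dynlt1f. The fourth lay in Ezr, which encodes ezrin, the linker of actin filaments to the apical membrane, at chr17:6779719-6780064. Consecutive centres were 165, 106 and 102 kb apart. Exons and introns were not told apart, because the gene table gives gene bounds only.

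**Figure D1:**
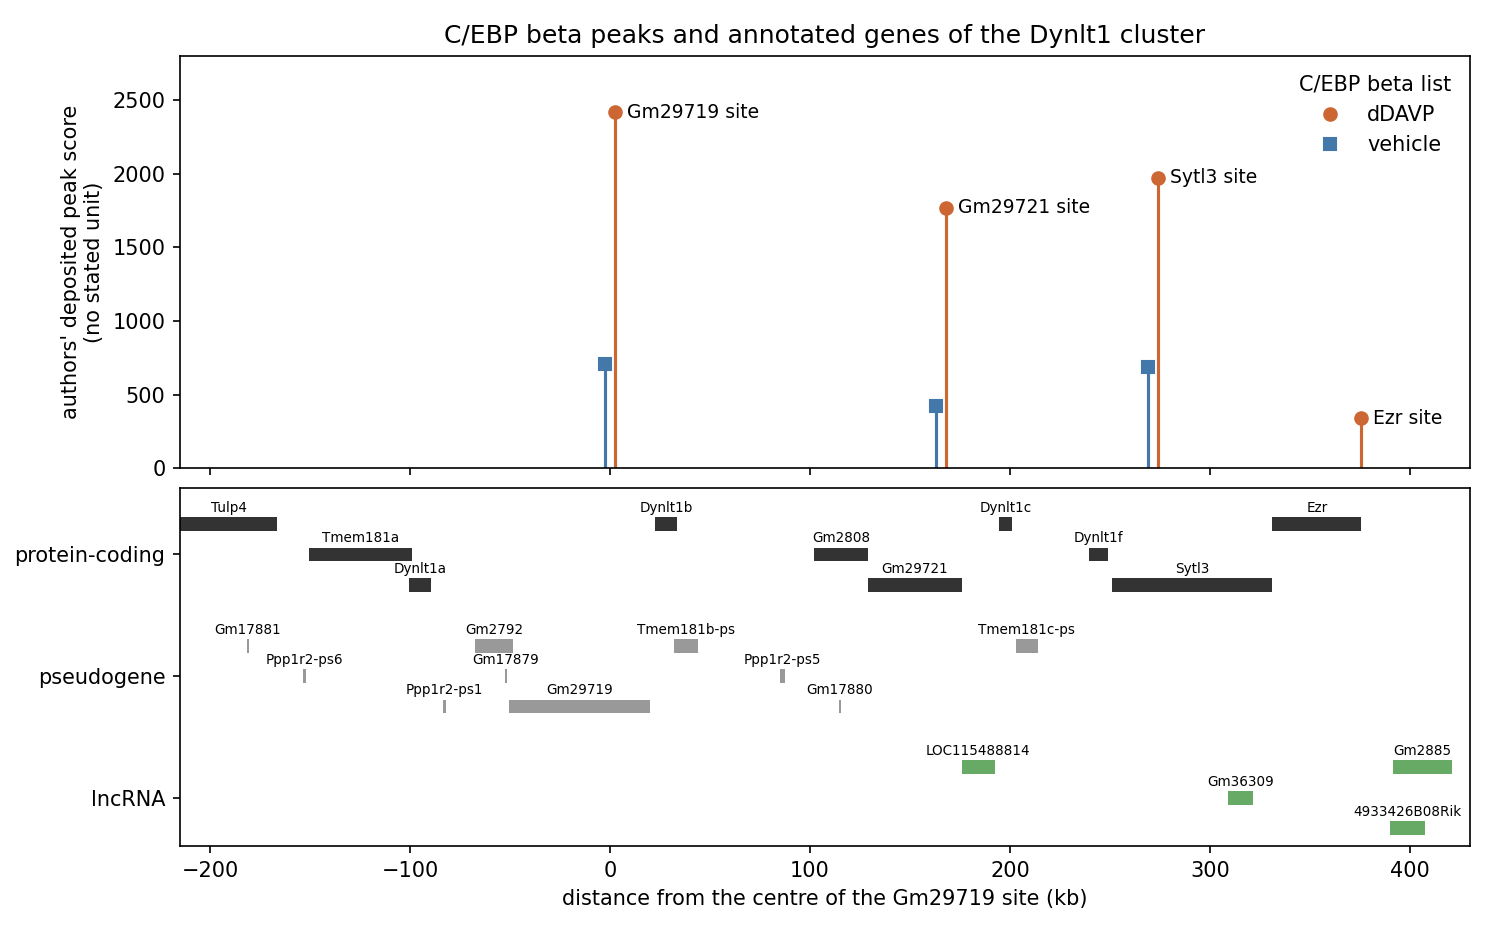
C/EBP beta peaks of the Dynlt1 cluster (upper panel, the authors' deposited score, which has no stated unit) above the annotated genes (lower panel), against distance in kb from the centre of the Gm29719 site. The marks of both lists are offset sideways by a small amount so that both can be seen. The Gm29719, Gm29721 and Sytl3 sites have a mark in both lists and the Ezr site in the dDAVP list alone, while no mark stands near Tmem181a or Dynlt1a. Tulp4 continues beyond the left edge.

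Dynlt1b, Dynlt1c and Dynlt1f each had 1 site on one side, and Dynlt1a had none. The Gm29719 site was centred 22462 bp from the lower end of Dynlt1b. The Sytl3 site was centred 22388 bp from the higher end of Dynlt1f, in mirrored orientation, so these distances differed by 74 bp. The Gm29721 site lay farther from its neighbour, 29430 bp from the lower end of Dynlt1c. By the strands of the promoter table the Dynlt1c and Dynlt1f sites lay before the start of the gene. The table gave no promoter for Dynlt1a and Dynlt1b.

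The genes that hold the Gm29719 and Sytl3 sites were arranged alike as well, and Gm29721 less so. The Gm29719 site was 19874 bp inside the near end of Gm29719, and the Sytl3 site was 20220 bp inside the near end of Sytl3. The Gm29721 site was 10717 bp inside Gm29721, and the lncRNA gene LOC115488814 filled most of the remaining space before Dynlt1c. The gap between the last annotated gene and the paralog was 2587 bp before Dynlt1b, 2383 bp before Dynlt1c and 2167 bp before Dynlt1f. Thus 3 of the 4 paralogs had the same order of site, end of a gene and Dynlt1 copy. For Dynlt1c the further gene LOC115488814 lay in between.

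**Figure D2:**
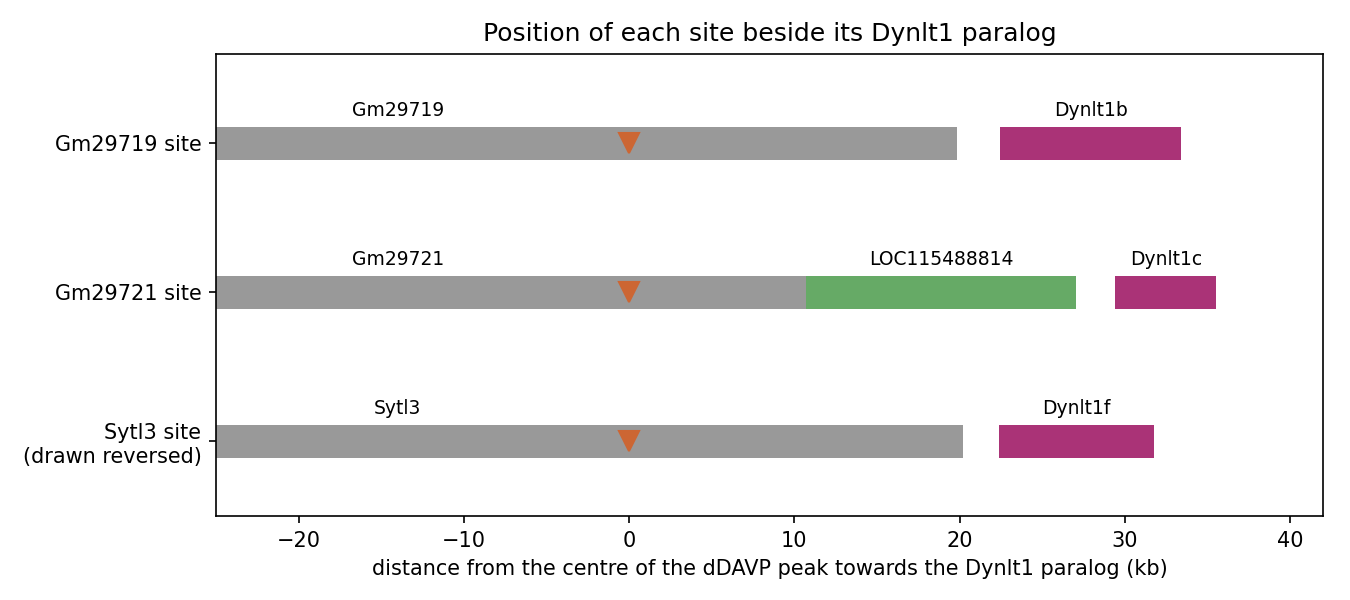
The Gm29719, Gm29721 and Sytl3 sites aligned at the centre of the dDAVP peak (triangle, 0 kb) and drawn towards the neighbouring Dynlt1 paralog (purple), with the Sytl3 row reversed. Grey bars are the genes that hold the site, shortened at the left edge, and the green bar is LOC115488814. Dynlt1b and Dynlt1f begin 22.5 and 22.4 kb from the site and Dynlt1c begins 29.4 kb from it.

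The remaining members were farther from C/EBP beta peaks. For Dynlt1a the nearest C/EBP beta peak was the Gm29719 site, 89.5 kb away after dDAVP and 89.6 kb after vehicle. For Tmem181a it was 98.8 kb away after vehicle. After dDAVP a peak inside Tulp4, outside the stretch, was 67.3 kb from Tmem181a. Dynlt1a, whose lower end overlaps the higher end of Tmem181a, was therefore the one Dynlt1 paralog of the 4 without a C/EBP beta peak within 50 kb in either list.

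The scores deposited with the peaks were next set side by side. A score is the authors' own value per peak, carried over from a peak of replicate 1 by its name, and its scale is not stated. The lists differ in length and whether their scores are on a common scale is unknown, so a ratio describes the deposited values and is no test of dDAVP. The Gm29719 site scored 711 after vehicle and 2416 after dDAVP. The Sytl3 site scored 689 and 1972, and the Gm29721 site 421 and 1770. The 3 sites thus stood in the same order in both lists, and the highest exceeded the lowest 1.69 times after vehicle and 1.36 times after dDAVP.

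The sites also had high ranks by score within each list, and ranks from lists of such different length are not compared. The Gm29719, Sytl3 and Gm29721 sites had ranks 3, 4 and 12 of 209 after vehicle. Their ranks after dDAVP were 16, 30 and 34 of 2401. Directly above and below the pair at ranks 3 and 4 after vehicle stood a peak in Ptpn12, a tyrosine phosphatase gene, with a score of 776, and one nearest to Rcn1, which encodes a calcium-binding protein of the endoplasmic reticulum, with a score of 598. The median score was 131 in the vehicle list and 197 in the dDAVP list, so the 3 sites were far above the middle of both.

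All 3 vehicle peaks of the cluster overlapped a dDAVP peak, as did 100% of the 209 vehicle peaks. In the other direction 3 of the 4 dDAVP peaks overlapped a vehicle peak, beside 8.70% of the 2401 dDAVP peaks. The overlaps were part of what the stretch was chosen on, so nothing is read from these shares.

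The score was higher after dDAVP in all 209 overlapping pairs, and in the cluster the ratio was at the low end. It was 2.86 at the Sytl3 site, 3.40 at the Gm29719 site and 4.20 at the Gm29721 site. Over all 209 pairs the ratio ran from 2.44 to 28.8, with a median of 7.48 and quartiles of 5.60 and 9.80. Lower ratios than at these sites were found for 4, 9 and 15 of the 209 pairs, in the same order. Ratios up to that of the Gm29721 site made up 7.66% of the pairs, and these 16 pairs include the 3 of the cluster.

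The ratio has the vehicle score as its divisor, and pairs with high vehicle scores had lower ratios across the list. Its median was 6.28 over the 104 pairs with a vehicle score above 131 and 9.04 over the other 105 pairs. Outside the cluster, 9 pairs had a vehicle score at least that of the Gm29721 site. Their ratios ran from 3.19 to 7.15, with a median of 5.27. Of these 9, the pairs at Ptpn12 (3.19) and at Trib1 (3.89), a pseudokinase gene, had a ratio below 4.20, and none was below the 2.86 of the Sytl3 site. The best-scoring site of both lists, in the kinase gene Cdkl4, had a ratio of 4.81. The dDAVP scores of the 9 pairs ran from 1714 to 3880 with a median of 2735, above all 3 dDAVP scores of the cluster.

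**Figure D3:**
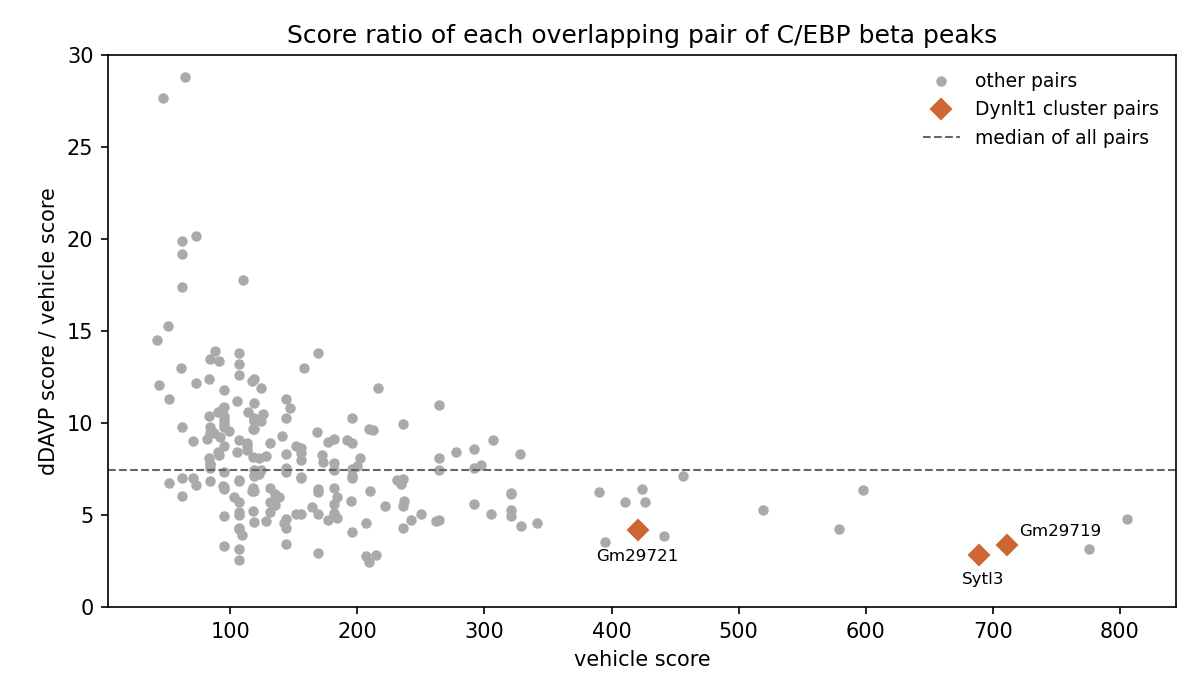
Ratio of the dDAVP score to the vehicle score for each of the 209 overlapping pairs of C/EBP beta peaks, against the vehicle score. The 3 pairs of the Dynlt1 cluster (diamonds) lie between 2.86 and 4.20, below the median of all pairs at 7.48 (dashed line), in the range of vehicle scores where few other pairs lie.

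In rank, too, the sites stood lower among the overlapping pairs after dDAVP than after vehicle. The Gm29719 site was at percentile 99.0 of the vehicle scores and 93.3 of the dDAVP scores of the 209 pairs. For the Sytl3 site these were 98.6 and 86.6, and for the Gm29721 site 94.7 and 84.7. Each of the 3 sites was therefore lower by rank after dDAVP. The score itself was higher after dDAVP in all 209 pairs, and why the ranks shifted was not tested. Of the 9 other pairs of like vehicle score, some fell and some rose in rank. Ptpn12 went from 2 to 11 and Trib1 from 9 to 36, while Rcn1 went from 5 to 2 and Cotl1 from 8 to 3. Nothing is read from this shift in rank.

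Peak width showed the same 3 sites as wide in both lists and nearly equal among themselves. The Gm29719 peak was 384 bp wide after vehicle and 529 bp after dDAVP, the Sytl3 peak 372 and 497 bp, and the Gm29721 peak 371 and 493 bp. They spread over 13 bp after vehicle and 36 bp after dDAVP. Median widths were 226 bp in the vehicle list and 266 bp in the dDAVP list. Widths in the dDAVP list ran from 3 to 703 bp, and its 2401 peaks carry 2399 different numbers in their names. Whether intervals were cut or split after peak calling is not given in the sources used here. Widths, here and below, are therefore those of the deposited intervals and may not be the extent of the called peak. By width the 3 peaks had ranks 5, 7 and 8 of 209 after vehicle and 13, 30 and 34 of 2401 after dDAVP.

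The dDAVP peak was wider than the vehicle peak in all 209 pairs, and it contained the vehicle peak in all of them. In the cluster it was wider by 145 bp at the Gm29719 site, 125 bp at the Sytl3 site and 122 bp at the Gm29721 site. Over all pairs the median was 168 bp, from 54 to 492 bp. The vehicle peak covered 72.6% to 75.3% of the dDAVP peak in the cluster, against a median of 57.6% over all pairs. In the 9 other pairs with a vehicle score at least that of the Gm29721 site, it covered 49.9% to 82.7%, with a median of 66.7%. Their width differences ran from 68 to 257 bp, with a median of 156 bp, so the cluster lay inside both ranges. At the Sytl3 site the dDAVP peak reached 59 bp farther on the lower side and 66 bp on the higher side, and the centres differed by 4 bp. At the Gm29719 site it reached 91 and 54 bp farther, with centres 18 bp apart.

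**Figure D4:**
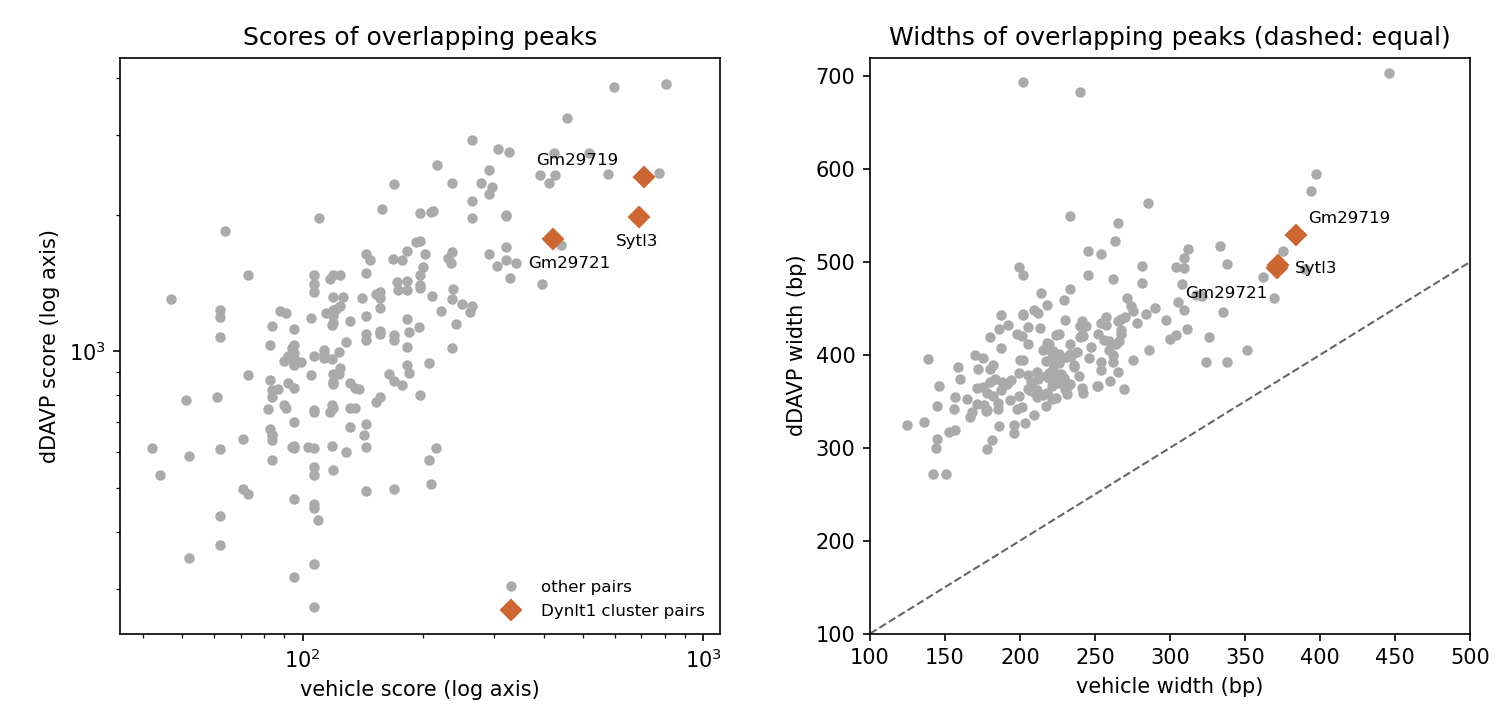
Scores (left, both axes logarithmic) and widths in bp (right) of the 209 overlapping pairs of C/EBP beta peaks, with the vehicle value on the horizontal and the dDAVP value on the vertical axis. Diamonds mark the 3 pairs of the Dynlt1 cluster, with vehicle scores from 421 to 711 and vehicle widths from 371 to 384 bp. All points of the right panel lie above the dashed line of equal width.

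The Ezr site was in the dDAVP list alone and was a peak of another size. It scored 340 (rank 643 of 2401) and was 346 bp wide. Its centre lay inside Ezr, 2889 bp from the higher end, which by the strand of the promoter table is the side of the gene's start. Among the 2192 dDAVP peaks without a vehicle peak, 436 scored higher, and their median was 179. The lowest score in the vehicle list was 42, and no vehicle peak lay closer to an end of Ezr than the Sytl3 site, 59.8 kb away. The missing call at Ezr after vehicle is no evidence that C/EBP beta was not bound.

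The nearest peaks beyond both edges of the stretch had lower scores and were also in the C/EBP beta dDAVP list alone. A peak inside Tulp4, 10.6 kb below the lower edge, scored 141 and was 263 bp wide. A peak 8.99 kb beyond the higher edge, inside the lncRNA genes 4933426B08Rik and Gm2885, scored 90 and was 160 bp wide. On the rest of chromosome 17 the vehicle list held no peak below the cluster and 8 above it, the first inside Cyp39a1 at 43675199 to 43675450. The 3 sites of the cluster were therefore 3 of the 11 vehicle peaks of this chromosome.

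Groups of 3 or more peaks were counted in stretches as long as the one examined. Of the 209 stretches of 600 kb that begin at a vehicle peak, 9 held at least 3 vehicle peaks, and of the 2401 that begin at a dDAVP peak 806 held at least 3 dDAVP peaks. The stretch that begins at the Gm29719 peak held 5 dDAVP peaks, including the one beyond the higher edge, and 190 of 2401 such stretches in that list held at least 5. These counts overlap one another and are given as a description.

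CREB1 was not called at any member gene. The closest CREB1 peak lay at chr17:6079664-6079982 after vehicle, 5 bp from an end of Gtf2h5, a subunit of the transcription factor TFIIH. It was 177 kb from Tmem181a, the nearest member, and 227 kb from Dynlt1a. After dDAVP the closest CREB1 peak was 8.20 Mb from Ezr. Within 5000 bp of a gene end, 0 of 7 members had a CREB1 peak in either list, against 5.05% of 21631 protein-coding genes after vehicle and 2.67% after dDAVP. Within 50 kb this was again 0 of 7 in either list, against 12.5% and 6.97%. For only 7 neighbouring genes a count of 0 is near these shares, so nothing is read from it.

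Distances from the C/EBP beta peaks to the ends of the member genes were counted in the same way. Within 5000 bp Ezr alone had a peak after dDAVP (1 of 7), against 5.01% of protein-coding genes. After vehicle 0 of 7 had one, against 0.513%. Within 50 kb Dynlt1b, Dynlt1c, Dynlt1f, Sytl3 and Ezr had one after dDAVP (5 of 7), against 18.9%, and the same without Ezr after vehicle (4 of 7), against 1.96%. The stretch was chosen around these genes and peaks, so nothing is read from these shares.

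Promoters of the members were searched for known binding letters of both factor families. RefSeq promoters, 250 bases before to 50 after the start, were matched for 5 of 7 members, with 2 promoters for Tmem181a. The searched letters, on both strands, were the C/EBP palindrome TTGCGCAA, its looser form TTGCNNAA, which includes it, the C/EBP and ATF composite TTGCATCA, the cAMP response element TGACGTCA and its part TGACG. Sytl3 had 1 match to TGACG, beginning 138 bases before its start, and the other 5 member promoters had none of these. TGACG was found in 20.8% of all 32851 promoters, TTGCNNAA in 10.8%, TGACGTCA in 1.79%, TTGCATCA in 0.895% and TTGCGCAA in 0.183%. Of the 12 promoters in the stretch, those of Gm29721 (TGACG) and Gm2808 (TTGCNNAA) also had a match. No peak of any list overlapped these promoters, so the matches are letters only.

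Related genes were taken from lists of the dynein motor, the ezrin family and the Rab27 partners, which include the members, and counted at 5000 bp. The shares over all protein-coding genes at that distance were 0.513% and 5.01% for C/EBP beta and 5.05% and 2.67% for CREB1, after vehicle and dDAVP, and nothing particular to a list is read from its count. Of 26 dynein and dynactin genes, 1 had a C/EBP beta peak within 5000 bp in each list, Tctex1d4 in both. Tctex1d4 encodes another light chain of the Tctex-1 family, and the peak was 4005 bp away after vehicle and 4010 bp after dDAVP, inside the neighbouring gene Btbd19. That peak scored 264 after vehicle and 2914 after dDAVP, a ratio of 11.0, and 178 of the 209 pairs had a lower ratio. The Tctex1d4 pair thus stood in the upper part of the ratios and the 3 pairs nearest to the Dynlt1 copies in the lowest part. Its vehicle score of 264 was below the 421 to 711 of the cluster, and ratios were lower at high vehicle scores. The other pairs with a vehicle score of 264 had ratios of 4.76, 7.46 and 8.13, below that of the Tctex1d4 pair. No difference between the genes is read from this.

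CREB1 peaks within 5000 bp were found at 1 of the 26 dynein and dynactin genes, Dctn4, a subunit of the dynactin complex that couples dynein to cargo. They were 1949 bp away after vehicle and 1965 bp after dDAVP. Over all protein-coding genes the CREB1 shares were 5.05% and 2.67%, and the C/EBP beta shares 0.513% and 5.01%, after vehicle and dDAVP. Of 6 genes of ezrin, radixin, moesin, merlin and their NHERF partners, 1 had a C/EBP beta peak within 5000 bp, Ezr itself after dDAVP, and 0 had a CREB1 peak. Of 7 genes of synaptotagmin-like proteins and Rab27, 0 had a peak of either factor within 5000 bp.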

How the data were processed

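Peak positions were deposited as 4 lists, a separate one for every antibody and treatment. The submitters' processing notes name mm10 and the tools MACS2, BWA, bedtools and SAMtools, without roles or versions. The way replicates were combined is not given in the sources used here. In the deposited C/EBP beta lists each peak has a score, and per the names in these lists all scores are of replicate 1 peaks called with a bandwidth of 300 and q of 0.01. The CREB1 lists hold positions alone.

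Peaks touching 6.2 to 6.8 Mb of chromosome 17 were taken and starts converted to count from 1. Peaks overlapping by at least 1 bp formed pairs. Distances run from the peak centre to a gene end of the RefSeq table (GRCm38.p6, the same assembly as mm10; 21631 protein-coding genes on the autosomes and X). Named genes were the members, other genes of the stretch, the gene nearest to each peak, fixed-list genes within 5000 bp, and rank neighbours among the 10 best peaks. Trib1, Cdkl4, Cotl1, Btbd19, Cyp39a1 and Gtf2h5 were named after their values were seen. Members and lists were chosen with earlier results of these data known. Of 41 list genes 40 were matched, some by older symbols, and Dynlt2a1 was not. Promoters were aligned locally with Biopython 1.88 (match 2, mismatch -3, gap opening -5, gap extension -2). Overlap and distance functions were tested on simulated data in Python 3.11.15. The planned comparison of protein sequences was not run, since proteins were not used here. No test over replicates was possible.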

Additional observations from a re-analysis of the deposited data

How the results depend on the processing

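No paired analysis was possible because each group has 1 peak list, with C/EBP beta scores named for replicate 1 alone. For the same reason no replicate could be left out. The sequencing depth behind each list is unknown. Of 30 alternative values, 18 stayed within 1.5 times the count or within 1 SD over the 3 pairs of the cluster, and 12 did not. The counts of C/EBP beta peaks were 3 after vehicle and 4 after dDAVP, and with the stretch taken from the outermost member genes plus 50 kb they were 3 and 5. At a distance of 1000 bp, 0 member genes had a C/EBP beta peak after dDAVP, and at 50000 bp 5 had one (1 at 5000 bp). After vehicle 4 had one at 50000 bp (0 at 5000 bp). Of the 40 genes of the fixed lists, 1 after vehicle and 2 after dDAVP had a C/EBP beta peak at 5000 bp, 0 and 0 at 1000 bp, and 6 and 12 at 50000 bp. For CREB1 these were 1 and 1, 0 and 0, and 6 and 4. The median score ratio of 3.40 ran from 3.13 to 3.80 when each pair was left out (leave-one-out). Taken as a difference in percentile rank among the overlapping pairs, dDAVP minus vehicle, its median was -10.0. The score was higher after dDAVP in all 209 pairs, whereas a percentile rank is relative to those pairs. The signs of these measures are therefore not set against each other. An overlap of 50% of both peaks gave the same 3 pairs, with a median ratio of 3.40 and a median width difference of 125 bp.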

Other observations

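The numbers in the names of the C/EBP beta peaks rise along chromosome 17, as a peak caller numbers its calls. In the dDAVP list the sites of the cluster carry the numbers 1217, 1218, 1219 and 1221, and a peak with the number 1220 is not in the list. By its number it would lie between the Sytl3 and Ezr sites. In the vehicle list the 3 sites carry the numbers 134, 135 and 136 with no gap. Over the whole lists, 2399 different numbers up to 2707 are present after dDAVP (88.6% of the highest number) and 209 up to 329 after vehicle (63.5%). A step that removed calls of replicate 1 is not described in the sources used here.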
